A study of Mus musculus with 2 samples.

Results

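The genes of the core TGF-beta signalling chain were compared between regulatory T cells (Tregs) of mice with a dominant negative TGF-beta receptor II and Tregs of wild-type mice. The chain comprised 10 genes: the ligands Tgfb1, Tgfb2 and Tgfb3, the receptors Tgfbr1 and Tgfbr2, the co-receptors Tgfbr3 and Eng, and the signalling SMADs Smad2, Smad3 and Smad4. They were chosen by name, with earlier results of these data known. Every probe set that the platform annotation gives to exactly 1 gene was kept if that gene was among the 10. This gave 25 probe sets for all 10 genes, of 34945 probe sets for 18193 genes in all. No probe set with several genes named any of the 10.

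The DNR group consisted of CD4+Foxp3+ Tregs from spleens of mice labelled as carrying a dominant negative TGF-beta receptor II, on the C57BL/6 background, at 10 weeks of age. The WT group consisted of Tregs with the same surface and Foxp3 labels from spleens of wild-type C57BL/6 mice of the same age. Both were described as naive animals, and the cells were purified by flow cytometry. Each genotype was represented by 1 Affymetrix 3′ expression array hybridised with biotin-labelled cRNA. The sorting protocol is worded alike for both samples and names DNR mice alone, so each genotype was taken from the genotype field. The promoter and species of the altered receptor, the number of mice per RNA and the way Foxp3 was read in the sort were not stated in the sources used.

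TGF-beta is a cytokine that is secreted in a latent form and, once released, is bound by the type II receptor TGFBR2. TGFBR2 then recruits and phosphorylates the type I receptor TGFBR1, which phosphorylates SMAD2 and SMAD3. These pair with SMAD4 and enter the nucleus to regulate transcription. A dominant negative type II receptor binds ligand but cannot pass the signal on. In T cells the pathway restrains activation and helps to induce Foxp3, the transcription factor that defines Tregs.

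The values were MAS5 signals, which combine the probes of a probe set into 1 linear intensity, and both arrays had been scaled to the same trimmed mean of 500.0. Signals below 110.9, the higher of the arrays' medians, were set to that floor before log2 was taken, because values under it have no reliable order. A gene was represented by its brightest probe set and counted as measured when this exceeded the floor on 1 array or both. All ratios are DNR over WT on the log2 scale. With 1 array per genotype there is no replicate check, so no p-value, SD over mice or standard error can be given. The one error that could be estimated was how far probe sets of 1 gene disagree, a robust SD of 0.39 in log2 ratio over 3968 genes, which holds no variation between mice, sorts or hybridisations.

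Both arrays carried the labelled cell type: all 6 Treg markers, Foxp3 among them, and all 5 pan T cell markers with a named probe set were above the floor on each. The summed signal of the Treg markers was 98473 in DNR Tregs and 77950 in WT Tregs. Ctla4 gave the largest part, with 52119 in DNR Tregs and 41217 in WT Tregs. The 6 markers did not run the same way. Il2ra (-0.21) and Ikzf4 (-0.58) were lower in DNR Tregs, and Foxp3 (0.28), Ctla4 (0.34), Ikzf2 (0.52) and Tnfrsf18 (0.43) were higher. Each of the 18 probe sets that detect hybridisation spike-ins was brighter in the DNR sample, with a median of 1.95-fold. The ratio of 3′ to 5′ signal, which grows as RNA is degraded, was 6.31 in DNR and 4.98 in WT RNA for Actb, and 2.28 in DNR and 2.07 in WT RNA for Gapdh. The part of these differences in the results was not tested.

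Most of the chain had a lower signal in DNR Tregs. Of the 8 member genes above the floor on both arrays, 7 were lower and 1, Smad3, was higher. Of all 9281 genes above the floor on both arrays, 53.5% were lower. The median log2 ratio of the 8 was -0.53, a 1.45-fold lower signal, beside a median of -0.03 over the 9281 genes. The differences were small: 1 member, Tgfbr3, was lower by at least 2-fold, against a background of 2.78%, and 0 were higher by at least 2-fold, against 3.05%. At least 1.5-fold lower were 3 members (Tgfbr1, Tgfbr2 and Tgfbr3), against 10% of the 9281 genes. The remaining 2 members, Tgfb2 and Tgfb3, were below the floor on both arrays and have no ratio.

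**Figure D1:**
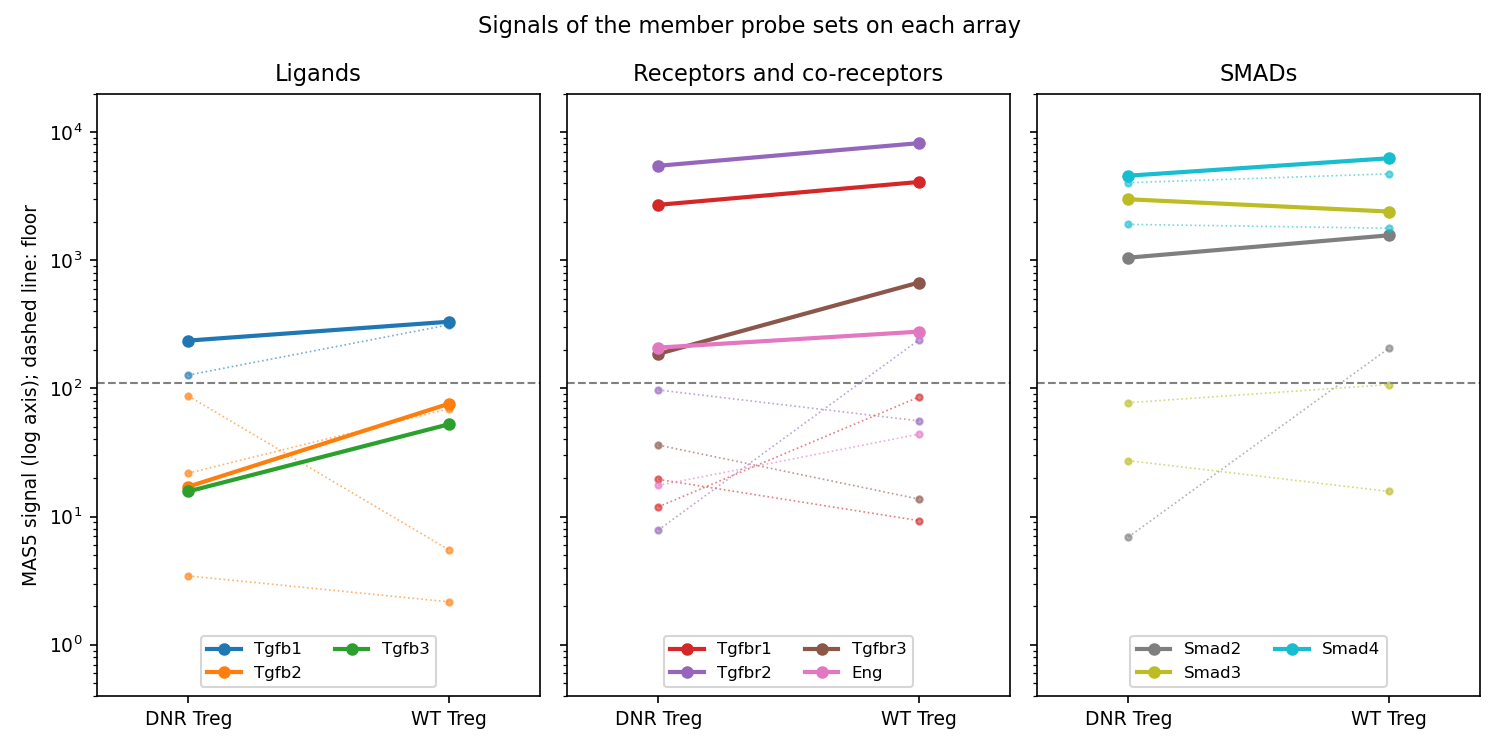
MAS5 signal (log axis) of all 25 member probe sets on the DNR array (left of each panel) and the WT array (right), 1 line per probe set. Thick lines mark the brightest probe set of each gene, dotted lines the others, and the dashed line the floor of 110.9; thick lines above the floor slope upward to WT except that of Smad3 (2990 in DNR and 2399 in WT).

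At the level of single probe sets, 11 of the 25 were above the floor on both arrays, 2 on the WT array alone, 0 on the DNR array alone and 12 on neither. Over all probe sets with 1 gene, 3223 exceeded it in DNR Tregs only and 1801 in WT Tregs only. Of the 11 on both arrays 9 were lower in DNR Tregs, against a background of 52.5%, and 2 of them by at least 2-fold, against 2.9%. The median ratio of the 11 was -0.49, beside -0.02 over the 15740 probe sets of all genes that were above the floor on both arrays. Probe sets of 1 gene share their transcript and are not independent.

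The signals of other cell types in the sort moved in part in the same direction. Of 10 macrophage and monocyte markers all 8 measured ones were lower in DNR Tregs, with a summed signal of 3725 in DNR Tregs and 5281 in WT Tregs, while Cd14 and Fcgr1 were below the floor on both. Among all measured genes 48.6% were lower. The markers ran from C1qa, 2.39-fold lower, C1qc, 2.08-fold, and Mrc1, 2.03-fold, to C1qb, 1.02-fold, and the defining receptor gene Csf1r read 1449 in DNR Tregs and 1799 in WT Tregs, 1.24-fold lower. Of 3 measured markers of naive CD4 T cells, 2 were lower, Ccr7 by 2.47-fold and Lef1 by 1.52-fold, and Il7r was 1.1-fold higher. Cd40lg was below the floor on both arrays. The summed signal of that list was 17650 in DNR Tregs and 26352 in WT Tregs. Whether it came from naive CD4 T cells or from the Tregs themselves was not tested. Other lists went mostly the other way. Among measured markers 1 of 4 was lower in DNR Tregs for neutrophils, 1 of 3 for B cells and 2 of 5 for CD8 T and NK cells. For dendritic and erythroid cells 0 of 2 and 0 of 1 were lower. Summed signals were 1379 in DNR Tregs and 554 in WT Tregs for neutrophils, and 1452 and 1006 for B cells. Sums of these lists ran from 139 to 1452 in DNR Tregs and from 29 to 1006 in WT Tregs. All sums in this paragraph include values below the floor. The part of these cells in the member signals was not tested. In bulk RNA, fewer cells of a type and less RNA per cell cannot be told apart.

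Among the ligands, Tgfb1 alone was above the floor. Tgfb1 encodes the isoform that predominates in lymphocytes and that Tregs present in latent form on their surface. Its brightest probe set, 1445360_at, read 236 in DNR Tregs and 331 in WT Tregs, a ratio of -0.49 and 1.40-fold lower. The second, 1420653_at, had 127 in DNR Tregs and 313 in WT Tregs, a ratio of -1.30 and 2.46-fold lower. Both probe sets were lower in DNR Tregs, but they differed from each other in size and were dim, at 2.13 and 2.98 times the floor in DNR and WT Tregs for the brighter. Of all genes above the floor on both arrays 13.7% were at least as low as the brighter one. Platelets store this ligand. Of 5 platelet and megakaryocyte markers Pf4, Ppbp and Gp9 were below the floor on both arrays. Itga2b had 194 in DNR Tregs and 253 in WT Tregs, and Gp1bb 71.0, below the floor, in DNR Tregs and 133 in WT Tregs. The summed signal of the list, with values below the floor, was 344 in DNR Tregs and 543 in WT Tregs. The part of platelets in the Tgfb1 ratio was not tested.

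Tgfb2 and Tgfb3, isoforms better known from epithelial and mesenchymal tissue, were not detected above the floor. The 4 probe sets of Tgfb2 read 3.44 to 87.2 in DNR Tregs and 2.16 to 75.7 in WT Tregs. Probe set 1438303_at read 87.2 in DNR Tregs and 5.51 in WT Tregs, and 1423250_a_at and 1450923_at read 17.1 and 21.8 in DNR Tregs and 75.7 and 69.2 in WT Tregs, values that have no reliable order. The single probe set of Tgfb3 read 15.7 in DNR Tregs and 52.4 in WT Tregs. Signals of this size do not show a direction, or whether the transcripts were absent.

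Both signalling receptors had lower signals in DNR Tregs, by nearly equal ratios. Tgfbr2, the ligand-binding type II receptor, read 5457 in DNR Tregs and 8193 in WT Tregs by its brightest probe set, 1426397_at. The ratio was -0.59, a 1.5-fold lower signal. Tgfbr1, the type I receptor kinase, had 2706 in DNR Tregs and 4077 in WT Tregs by probe set 1420895_at, a ratio of -0.59 and 1.51-fold lower. Each ratio was about 1.5 times the disagreement between probe sets of 1 gene, and 9.97% and 9.77% of all genes above the floor on both arrays were at least as low as Tgfbr2 and Tgfbr1.

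Background differed with brightness. Of the 4363 genes with a mean signal of at least 1000, 4.88% were lower by at least 1.5-fold, against 14.6% of the 4918 fainter ones. Both signalling receptors lie in the brighter class, with Smad2, Smad3 and Smad4. Of these 5 members Tgfbr1 and Tgfbr2 were at least 1.5-fold lower, by 1.51-fold and 1.5-fold, and Smad2 was just short of it at 1.49-fold.

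The promoters of Tgfbr1, Tgfbr2 and Smad3 are shown because Tgfbr1 and Tgfbr2 were lower by nearly the same ratio while Smad3 was not lower. Each is RefSeq's sequence of GRCm38.p6, 300 bases from 250 before to 50 after the gene's start, 5′ to 3′ on the gene's strand, at chr4:47352972-47353271 (+) for Tgfbr1, chr9:116175314-116175613 (-) for Tgfbr2 and chr9:63757945-63758244 (-) for Smad3. Capitals mark the GC box GGGCGG, bound by Sp1, and the SMAD-binding box CAGAC, each searched on both strands.
Tgfbr1: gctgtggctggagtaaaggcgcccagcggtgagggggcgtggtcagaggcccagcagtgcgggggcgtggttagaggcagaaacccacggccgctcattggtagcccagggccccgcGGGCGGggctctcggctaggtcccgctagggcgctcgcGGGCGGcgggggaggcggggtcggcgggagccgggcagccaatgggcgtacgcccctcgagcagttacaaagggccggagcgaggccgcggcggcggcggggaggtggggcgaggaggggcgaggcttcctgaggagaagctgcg
Tgfbr2: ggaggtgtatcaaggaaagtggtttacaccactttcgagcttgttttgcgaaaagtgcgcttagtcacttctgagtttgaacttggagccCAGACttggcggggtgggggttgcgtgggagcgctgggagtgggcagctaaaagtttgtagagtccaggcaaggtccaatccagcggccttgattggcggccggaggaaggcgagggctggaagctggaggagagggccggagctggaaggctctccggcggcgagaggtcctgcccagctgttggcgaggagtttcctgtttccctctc
Smad3: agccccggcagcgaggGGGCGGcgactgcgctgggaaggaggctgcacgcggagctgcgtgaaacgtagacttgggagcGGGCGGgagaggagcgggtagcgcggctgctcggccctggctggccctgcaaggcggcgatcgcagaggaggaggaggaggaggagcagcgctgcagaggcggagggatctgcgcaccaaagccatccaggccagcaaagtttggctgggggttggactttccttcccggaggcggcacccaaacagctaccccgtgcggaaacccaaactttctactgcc

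The receptor promoters differed in these boxes and were alike in another, the CCAAT box. The 3 promoters were chosen by the ratios of their genes, and the part of any motif in those ratios was not tested. The Tgfbr1 promoter held 2 GC boxes and 0 SMAD boxes, the Tgfbr2 promoter 0 GC boxes and 1 SMAD box, and the Smad3 promoter 2 GC boxes and 0 SMAD boxes. Of 32851 promoters of this length in the table, 35.7% held a GC box and 49.6% a SMAD box. The CCAAT box, searched on both strands like every motif and held by 37.4% of promoters, occurred 2 times each in Tgfbr1 and Tgfbr2 and 0 times in Smad3. The palindromic SMAD-binding element GTCTAGAC, in 0.213% of promoters, and the TATA box TATAAA, in 13.6%, were in none of the 3; no motif overlapped another. Their GC content was 74.7% for Tgfbr1, 59% for Tgfbr2 and 67.7% for Smad3, beside a median of 52.7% over all promoters. For Tgfbr1 the upstream of 2 listed starts was used, and 6 of the 10 genes matched the table by symbol. Motifs were counted by gene for the 3 shown alone, without Smad2, whose ratio of -0.58 was close to those of the receptors. Whether the CCAAT box goes with lower ratios among the members was thus not tested.

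The other probe sets of the receptors were dim. For Tgfbr2, probe set 1425444_a_at read 7.85, below the floor, in DNR Tregs and 238 in WT Tregs, which gives at least 2.14-fold lower in DNR Tregs. The third Tgfbr2 probe set, 1422019_at, was below the floor with 97.2 in DNR Tregs and 55.8 in WT Tregs. For Tgfbr1, the other probe sets, 1420894_at and 1420893_a_at, read 11.9 and 19.5 in DNR Tregs and 85.4 and 9.30 in WT Tregs, all below the floor. The ratio of Tgfbr1 thus rests on 1 probe set, and that of Tgfbr2 is accompanied by 1 bound in the same direction. Which sequence the altered receptor carries is not given, so none of the mouse Tgfbr2 probe sets checks the genotype.

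The co-receptors lack kinase activity of their own. Tgfbr3, or betaglycan, which captures TGF-beta and presents it to the type II receptor, showed the largest difference of the 8 measured members. Its brightest probe set, 1433795_at, read 186 in DNR Tregs and 669 in WT Tregs, a ratio of -1.85 and 3.59-fold lower. The DNR signal was 1.68 times the floor, near the limit of what was counted as signal, and the WT signal 6.03 times the floor. Among the 9281 genes with signal on both arrays 16, or 0.172%, were at least as low. These include brighter genes, of which 4.88% were at least 1.5-fold lower, against 14.6% of fainter ones such as Tgfbr3. The probe set SD is likewise taken over genes of all brightness. The ratio was 4.7 times the probe set SD, but the second Tgfbr3 probe set, 1425620_at, was below the floor at 36.1 in DNR Tregs and 13.7 in WT Tregs and could not check it.

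Betaglycan is also made by stromal cells. Of 6 fibroblast and stroma markers, 5 were below the floor on both arrays (Col1a1, Col1a2, Col3a1, Pdgfra and Dcn), and the summed signal of all 6 was 379 in DNR Tregs and 304 in WT Tregs. The remaining marker, Pdgfrb, was just above the floor in WT Tregs alone, with 7.62 in DNR Tregs and 117 in WT Tregs. Sums made mostly of values below the floor give no direction, and the part of stromal cells in the Tgfbr3 ratio was not tested.

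Eng encodes endoglin, or CD105, a co-receptor best known from endothelial cells. It had 208 in DNR Tregs and 277 in WT Tregs by probe set 1417271_a_at, a ratio of -0.41 and 1.33-fold lower. Of all genes above the floor on both arrays 17.8% were at least as low, and the ratio was 1.04 times the probe set SD. The second Eng probe set was below the floor at 17.5 in DNR Tregs and 43.9 in WT Tregs. Both can bind several transcripts of the gene. Of 7 endothelial markers, 4 (Tek, Tie1, Emcn and Vwf) were below the floor on both arrays. Pecam1 had 373 in DNR Tregs and 427 in WT Tregs. Cdh5 and Kdr, at 117 and 127, were above the floor in DNR Tregs alone. The summed signal of the list, with values below the floor, was 720 in DNR Tregs and 786 in WT Tregs. The part of endothelial cells in the Eng ratio was not tested.

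**Figure D2:**
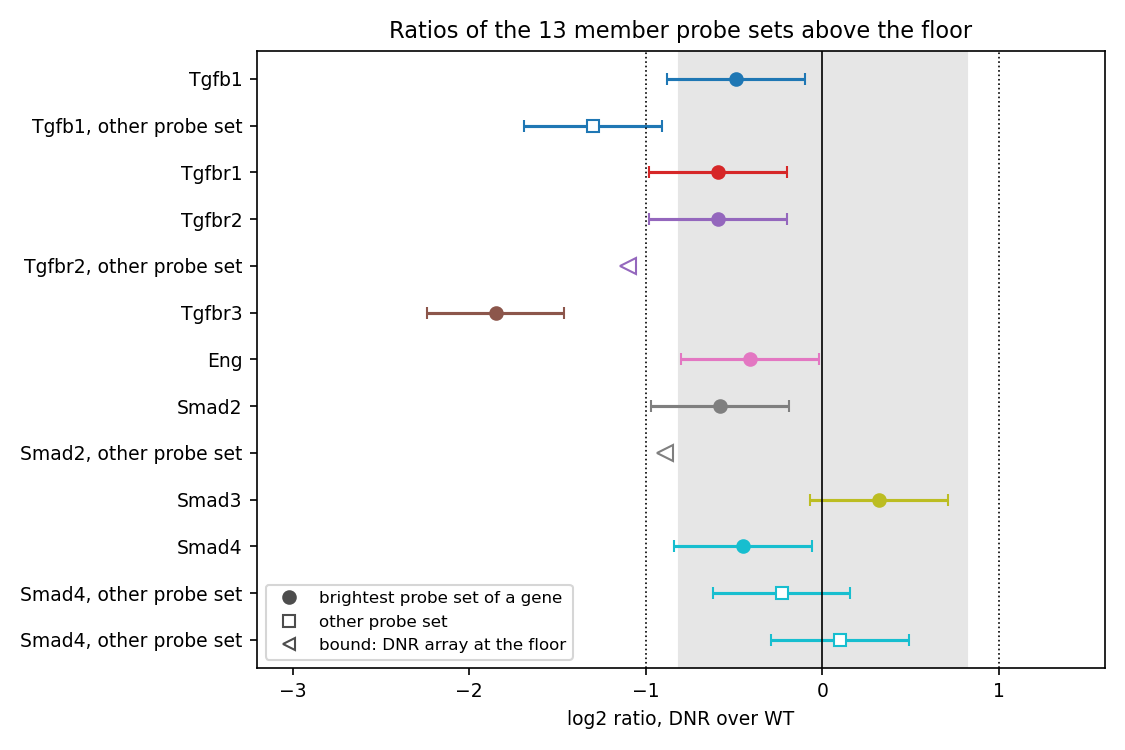
Log2 ratio, DNR over WT, of the 13 member probe sets above the floor on at least 1 array. Bars show the robust SD between probe sets of a gene (0.39), not an error over mice; open triangles are bounds, and the grey band spans the 5th to 95th percentile of all genes above the floor on both arrays (-0.81 to 0.82). Tgfbr3 at -1.85, the second Tgfb1 probe set at -1.30 and the bounds of Tgfbr2 (-1.10) and Smad2 (-0.89) lie outside the band.

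The signalling SMADs did not run the same way. Smad2, a receptor-regulated SMAD, read 1047 in DNR Tregs and 1564 in WT Tregs by probe set 1420634_a_at, a ratio of -0.58 and 1.49-fold lower. Of all genes above the floor on both arrays 10.3% were at least as low. Its second probe set, 1442062_at, was above the floor in WT Tregs alone, with 6.92 in DNR Tregs and 205 in WT Tregs, a bound of at least 1.85-fold lower. Both probe sets of Smad2 were thus lower on the DNR array.

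Smad3, the receptor-regulated SMAD that, unlike the main form of SMAD2, binds DNA directly, was the single member with a higher signal in DNR Tregs. Its brightest probe set, 1454960_at, had 2990 in DNR Tregs and 2399 in WT Tregs, a ratio of 0.32 and 1.25-fold higher. This was 0.808 times the probe set SD, within the disagreement between probe sets of 1 gene, and 20.4% of all genes above the floor on both arrays were at least as high. The remaining probe sets, 1450472_s_at and 1450471_at, were below the floor at 77.3 and 27.3 in DNR Tregs and 107 and 15.7 in WT Tregs. Whether Smad3 differed from Smad2 in its response to the genotype was not tested, for want of replicates.

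Smad4, the common partner of SMAD2 and SMAD3, was the member with the most probe sets above the floor, and they disagreed. Probe set 1422486_a_at had 4567 in DNR Tregs and 6243 in WT Tregs, a ratio of -0.45 and 1.37-fold lower. Probe set 1422487_at had 4028 in DNR Tregs and 4719 in WT Tregs, a ratio of -0.23. Probe set 1422485_at had 1905 in DNR Tregs and 1777 in WT Tregs, a ratio of 0.10, slightly higher. The range of the 3 probe sets of this gene spans both signs, and the median over them was -0.23.

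**Figure D3:**
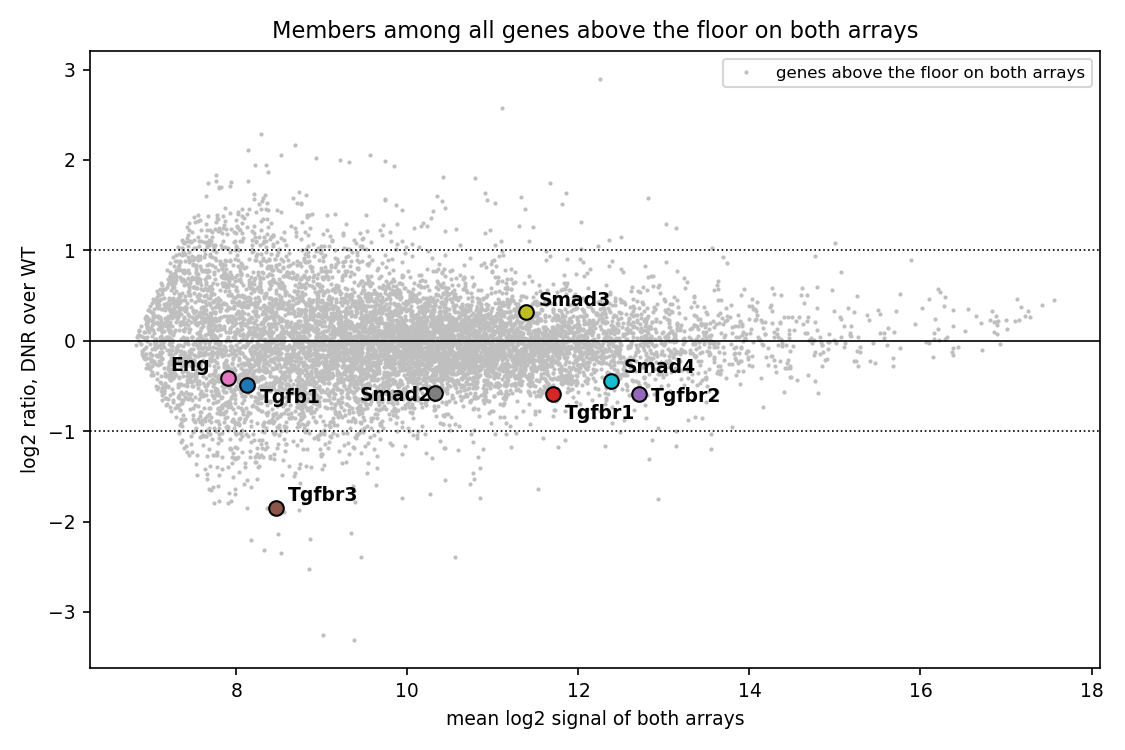
Log2 ratio, DNR over WT, against the mean log2 signal of both arrays for the 9281 genes above the floor on both, with the 8 measured members named. The cloud widens at low signal, where Tgfb1, Eng and Tgfbr3 lie; Tgfbr3 at -1.85 lies near its lower edge, and Tgfbr1, Tgfbr2, Smad2 and Smad4 lie between -0.45 and -0.59.

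The other genes of the pathway were described by role, from lists that hold 60 genes, 59 of them with a named probe set and 48 measured. The lists were written with earlier results of these data known. In DNR Tregs 32 of the 48 were lower and 16 higher, with a median ratio of -0.24, while 48.6% of all 11927 measured genes were lower, with a median of 0.01. At least 2-fold lower were 5, against a background of 2.93%, and at least 2-fold higher 1, against 4%. Ratios with 1 array at the floor enter these counts as bounds.

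Of 6 measured genes for keeping TGF-beta latent and for activating it, 4 were higher in DNR Tregs and 2 lower, none by 2-fold, with a median of 0.30. The list holds 11 genes. Lrrc32 had no named probe set, and Itgb6, Ltbp1, Ltbp2 and Thbs1 were below the floor on both arrays. Among all measured genes 48.6% were lower, and the difference of these genes from the members was not tested. Itgav, the integrin alpha chain that takes part in releasing active TGF-beta, had 5745 in DNR Tregs and 3151 in WT Tregs, 1.82-fold higher, and its other measured probe sets were at 0.54 and 0.63. Nrros, which anchors latent TGF-beta on myeloid cells, had 1155 in DNR Tregs and 1448 in WT Tregs. Itgb8, the partner of the alpha V chain on Tregs, had 953 in DNR Tregs and 669 in WT Tregs, a ratio of 0.51; it is named after its value was seen.

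Of 6 measured receptor-associated genes 4 were higher and 2 lower, with a median of 0.13, while 48.6% of all measured genes were lower. Shc1, an adaptor of receptor tyrosine kinases and TGFBR1, had 144 in DNR Tregs and 713 in WT Tregs, 4.96-fold lower, while its second probe set was at 0.29. Zfyve9, which brings SMADs to the receptors, had 266 in DNR Tregs and 12.9, below the floor, in WT Tregs, at least 2.40-fold higher. Receptors of the activin and BMP branches, which signal through related receptor pairs, were mixed. Of 5 measured 3 were lower, against the same 48.6%, with a median of -0.05. Acvr1b, an activin type I receptor, had 943 in DNR Tregs and 1128 in WT Tregs, with another probe set at 1.40, and Bmpr2, the BMP type II receptor, had 386 in DNR Tregs and 400 in WT Tregs.

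Both measured SMADs of the BMP branch were lower by their brightest probe set: Smad1 had 911 in DNR Tregs and 1169 in WT Tregs, with other probe sets between -0.21 and 0.53, and Smad5 426 in DNR Tregs and 484 in WT Tregs, with other probe sets at -1.09 and -0.69. Smad9 was below the floor. Of 11 SMAD partners and co-regulators 7 were lower, none by 2-fold, with a median of -0.14, while 48.6% of all measured genes were lower. Tgif1, a co-repressor of SMADs, had 4005 in DNR Tregs and 5781 in WT Tregs, and Sp1, the factor that binds GC boxes, 3453 in DNR Tregs and 4278 in WT Tregs, with other probe sets of Sp1 at 0.12 and 0.57. Of 5 genes of the SMAD-independent arm, which runs through the kinase TAK1 to p38, 4 were lower, against the same 48.6%. Their median was -0.29. Tab2, an adaptor of that kinase, had 7271 in DNR Tregs and 7317 in WT Tregs, and Mapk14, the p38 kinase, 3103 in DNR Tregs and 4105 in WT Tregs with other probe sets between -0.58 and 1.10.

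The inhibitory SMADs and negative regulators had the lowest median of the 7 role lists, -0.55, close to that of the member chain. Of 13 measured genes 12 were lower in DNR Tregs, against 48.6% of all measured genes. At least 2-fold lower were 4, against 2.93%: Smurf1 (-2.21), Skil (-1.76), Smad7 (-1.58) and Ldlrad4, which was above the floor in WT Tregs alone. The 12 and the median include the deubiquitinases Usp9x (-0.91) and Usp15 (-0.32), better known for sustaining the pathway than for inhibiting it. The second probe set of Skil was at -1.45 and that of Smad7 at -0.73, short of 2-fold. Of the 12 lower genes, 6 had another measured probe set that was higher in DNR Tregs: Nedd4l (0.08), Pmepa1 (0.08), Ppm1a (0.49), Smurf2 (0.23), Usp15 (0.48) and Usp9x (0.61), all named after their values were seen. The list includes feedback genes that TGF-beta itself induces. Smurf1 was near the floor in DNR Tregs, at 135.

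**Figure D4:**
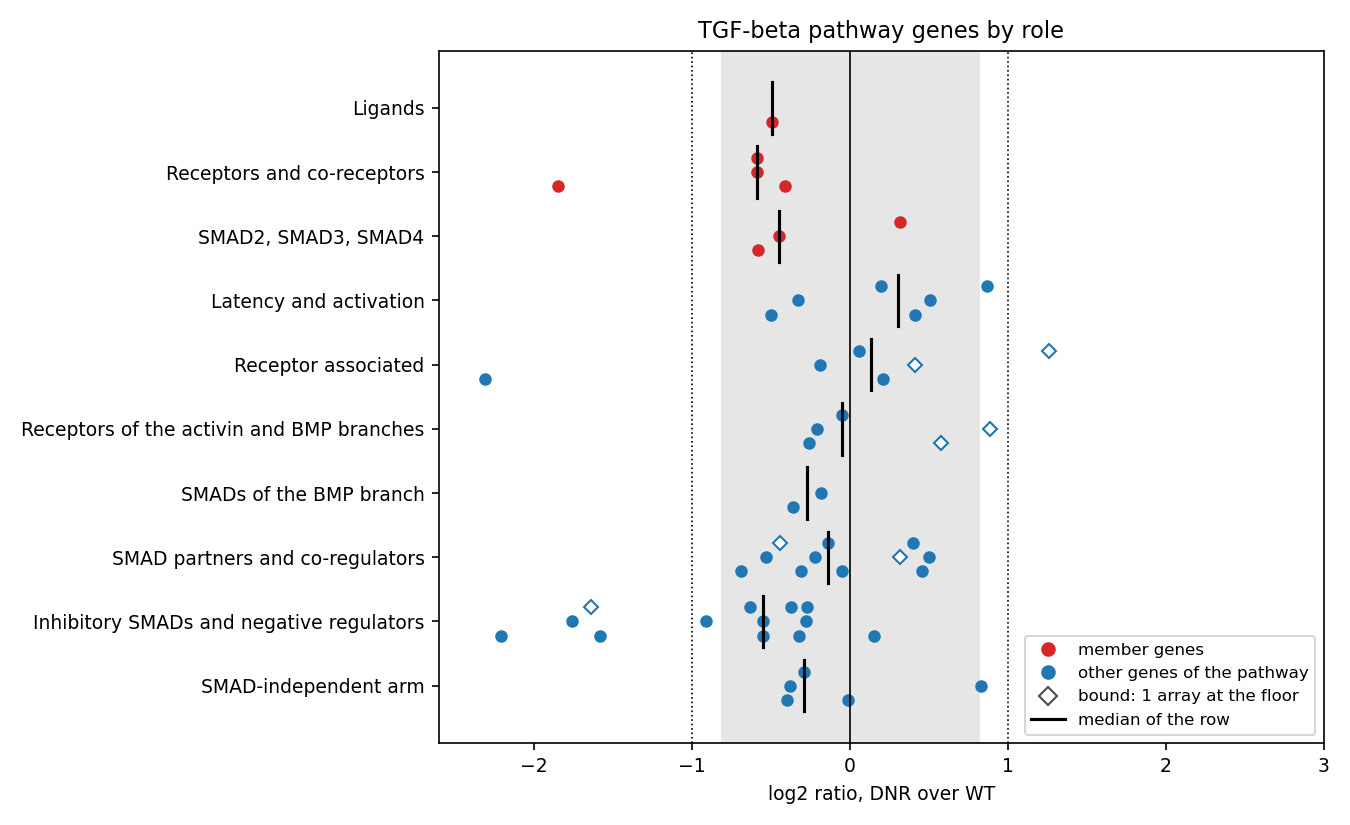
Log2 ratio, DNR over WT, of the 8 measured member genes (red, upper rows) and the 48 other measured genes of the pathway (blue), by role, with the median of each row as a black line. The grey band spans the 5th to 95th percentile of all genes above the floor on both arrays. The receptors and co-receptors (-1.85 to -0.41) and the list of inhibitory SMADs and negative regulators (median -0.55) lie mostly left of 0. The latency genes (median 0.30) lie mostly right of it.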

How the data were processed

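Gene expression was measured on 1 array of DNR Tregs and 1 of WT Tregs. The authors deposited a linear signal intensity for each probe set on each array, made with MAS5 per the submitters' processing notes. The MAS5 version, scaling target and detection calls are not given in the sources used. With 2% of values left out at each end, both arrays had a mean of 500.0. The number of arrays limits the precision.

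Of 45101 probe sets 64 controls were set aside. The platform annotation gave 1 gene (1 symbol and 1 Entrez identifier) to 34945 of the rest and several to 932, and 9160 were unnamed. Looking symbols up by Entrez identifier changed 0 of them. The floor, the representative probe set and the 2-fold size are described in the results. A fold was computed as a ratio of the deposited intensities after the floor, in Python 3.11.15 with pandas 2.3.3 and numpy 2.4.6. The procedure was tested on simulated data. The simulated differences were larger than that of any member and lay in genes well above the floor. That test therefore does not cover smaller differences or dim genes. No test of the genotypes was possible with 1 array each.

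The 10 member genes, the pathway lists and the marker lists were chosen with earlier results of these data known. Named are all members with their probe sets and, per pathway list, genes at least 2-fold different or otherwise the 2 brightest. The limit of a mean signal of 1000 between brighter and fainter genes was set after the data had been seen. With 2 arrays a pattern is 1 ratio, so no genes of like pattern are named. Alternatives were the floor at the 40th or 60th percentile or none, the median over probe sets, leaving out probe sets ending in _s_at, _x_at or _a_at, quantile scaling, a median ratio of 0, and a 1.5-fold size.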

Additional observations from a re-analysis of the deposited data

How the results depend on the processing

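Each of the 8 measured members kept its direction under every alternative that gave it a value: Smad3 ran from 0.32 to 0.36 and Tgfbr3 from -1.89 to -1.83, Tgfbr1 from -0.59 to -0.55, Tgfbr2 from -0.84 to -0.58, Smad2 from -0.89 to -0.54, Smad4 from -0.45 to -0.23, Eng from -0.48 to -0.40 and Tgfb1 from -0.89 to -0.47. Tgfb1 moved by more than the probe set SD with the median over its probe sets (-0.89), since its second probe set then enters. Eng had no probe set left without those that can bind several transcripts. Tgfbr1, Tgfbr3, Smad3 and Eng each had 1 probe set above the floor. For them the other floors and the median over probe sets used that same probe set and could not change the direction. Their ratios moved under quantile scaling and a median ratio of 0 alone. Smad4 kept its direction although its probe set 1422485_at was at 0.10. The member median ran from -0.66 to -0.49. Members lower numbered 6 to 9, with 7 to 10 measured. With no floor 3 members were at least 2-fold lower, the additional ones Tgfb2 and Tgfb3 at signals below the floor, while 14.6% of all genes were. At 1.5-fold 3 were lower, Tgfbr1, Tgfbr2 and Tgfbr3, against 9.85% of all genes. Of the other pathway genes, those at least 2-fold higher numbered 2 of 51 with the floor at the 40th percentile, against 7.3% of all genes. They numbered 0 of 44 with it at the 60th, against 2.52%, and 6 of 59 with none, against 19.9%. With no floor 9 of the 59 were at least 2-fold lower, a share near the 14.6% of all genes. At 1.5-fold 8 of 48 were lower, against 9.85%, and 4 higher, against 12.8%. Medians and ratios with a member at the floor include bounds. No paired analysis was possible because each genotype had 1 array. Signals near the floor limit Tgfb1, Eng and Tgfbr3 most.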
